A study of Rattus norvegicus with 16 samples.

Results

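TGF-alpha conditioned TRKA cells were compared with TRKA cells that had not received the factor, using 8 of the 16 single-colour Agilent arrays of the series. The members were taken from the labels alone: 4 arrays of the population labelled TRKA-TGF and 4 of the population labelled TRKA. All cells came from olfactory mucosa cultures of male Fischer rats, and populations were collected by flow cytometry for a surface protein. TRKA cells shared their culture protocol with the CD90 and p75 populations, while TRKA-TGF cells were grown with TGF-alpha (transforming growth factor alpha). Messenger RNA was captured on beads and amplified by global PCR before Cy3 labelling, so that ratios were measured after amplification. The labels do not say whether arrays with equal replicate numbers share an animal, and with no such statement the p-values measure the spread between these samples only. The p75 and CD90 arrays, 8 in all, entered the model for its estimate of the spread and serve as reference points.

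The receptor p75, encoded by Ngfr, binds all neurotrophins with low affinity. TGF-alpha is a ligand of the epidermal growth factor receptor, Egfr, which signals through Ras and the MAP kinases and induces immediate early genes and feedback inhibitors. In the olfactory mucosa, p75 marks the glia that wrap the olfactory axons. Macrophages, which also live there, are recognised by the colony stimulating factor receptor Csf1r and the haemoglobin scavenger receptor Cd163.

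A level is log2 of the background-subtracted signal minus its 75th percentile on the same array, so that 0 lies at that percentile. A difference is the mean TRKA-TGF level minus the mean TRKA level, in log2 units, and errors beside a mean are SD over 4 arrays. A gene was called when limma's Benjamini-Hochberg adjusted p over 20571 genes was under 0.05. Where a gene was well above background on no array of 1 population, the change is given as a lower bound ("at least N-fold"). The bound sets the brighter mean against, on each dim array, the higher of its own signal and the lowest signal well above background. It holds for this scaling and is not a bound over all settings. Over other settings the smallest differences of Homer3, Azin1, Hgf and Lgi4 were 5.68, 5.62, 2.89 and 1.74 log2 units, less than their bounds. The TRKA arrays were dimmer: 54.5% ± 2.60 of their spots were well above background against 68.4% ± 2.08 in TRKA-TGF (exact permutation test, two-sided p = 0.0286, the smallest that 70 assignments allow). Their spread was also wider, with a median SD per gene of 1.08 against 0.54. The TRKA arrays shared a slide and scan with p75 and the TRKA-TGF arrays another with CD90, so for this comparison slide and population cannot be told apart. Across those same slides, 70.8% of the genes called here differed by less than 1 log2 unit between CD90 and p75. CD90 and p75 differ in population as well as slide, and the share covers called genes only, so it is no test of slide. Levels of different genes are not compared with each other, since each probe has its own response.

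The gene of the p75 receptor was gained in the conditioned cells. Ngfr, the p75 gene (Entrez Gene 24596, probe at chr10:84263082-84263141 of rn4), was not well above background on any TRKA array, at −7.90, −7.79, −7.02 and −7.66. On the TRKA-TGF arrays it reached 0.09, −0.36, −1.49 and −0.06. All 4 TRKA-TGF arrays lay above every TRKA array, and Ngfr was at least 82.2-fold higher (limma adjusted p = 0.000463), while remaining below the p75 mean of 3.03. Such a separation of the arrays was seen for 25.6% of all genes, and for 31.5% of the genes well above background on all 8 arrays. In bulk RNA, more cells with a transcript and more transcript per cell cannot be told apart.

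Thy1, Tgfa and Egfr, which belong to the CD90 sort and to the factor, were not called. Thy1, which encodes CD90, stood at −6.06 ± 1.77 in TRKA and −6.87 ± 0.62 in TRKA-TGF, against a CD90 mean of 3.34. Tgfa, the gene of the added ligand, had means of −0.06 and −0.75 with overlapping arrays (limma adjusted p = 0.445). The receptor gene Egfr was seen above background on 1 TRKA array and 2 TRKA-TGF arrays only, and its levels spread from −7.89 to 1.29.

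**Figure D1:**
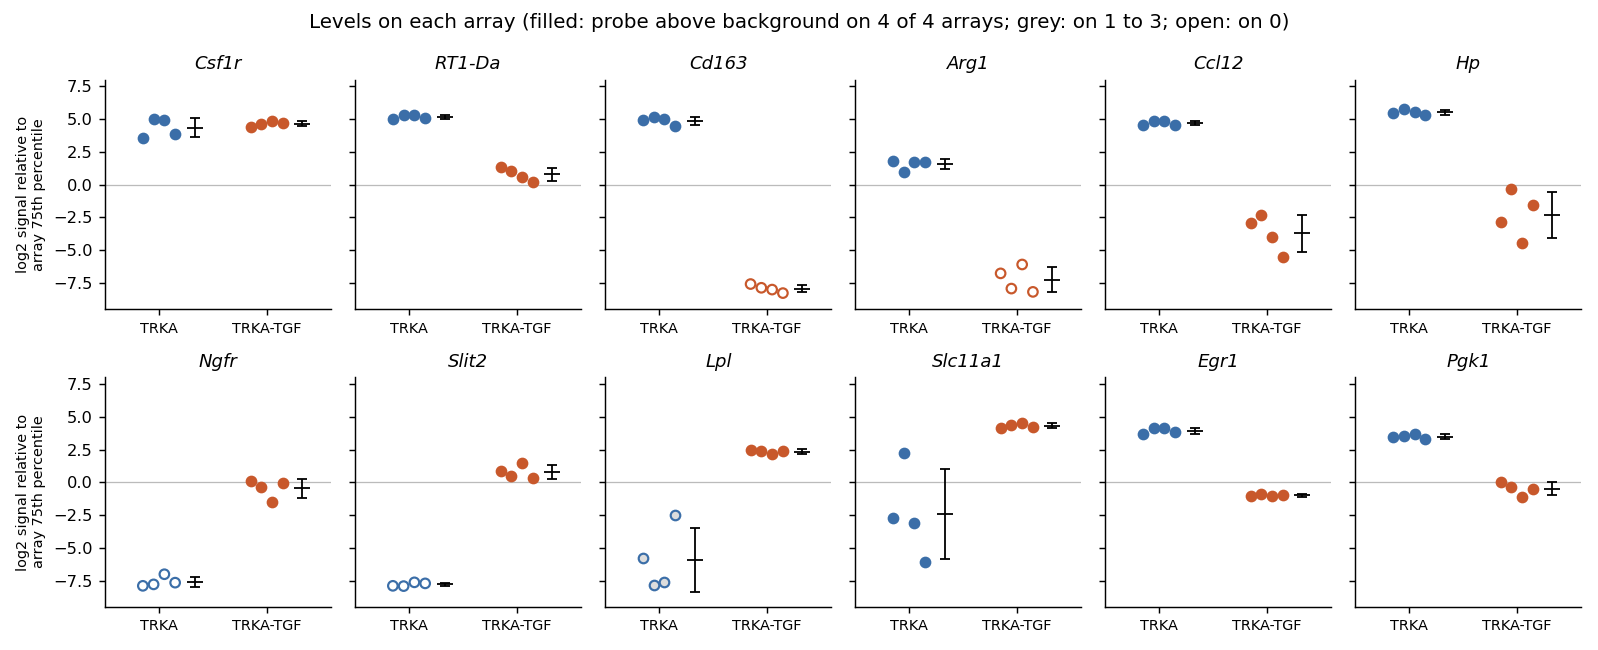
Level of selected genes on each of the 8 arrays (y axis, log2 relative to the array's 75th percentile), with 1 point per array and, beside the points, the mean and SD of the 4 arrays. Filled points mark a probe well above background on all 4 arrays of the population, grey points on 1 to 3 and open points on 0. Cd163 lies between 4.45 and 5.14 on the TRKA arrays and between −8.28 and −7.59 on the TRKA-TGF arrays, and Ngfr and Slit2 lie the other way round.

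Several general markers of macrophages were high in both populations. Csf1r, the receptor for macrophage growth factor, had means of 4.34 ± 0.73 in TRKA and 4.63 ± 0.19 in TRKA-TGF, against −2.49 in p75. Itgam, the integrin CD11b, stood at 3.96 and 4.25, and Trem2, a lipid-sensing receptor of macrophages and microglia, at 3.76 and 3.94. Fcer1g, the signalling chain of Fc receptors, stood at 6.70 and 6.57, and Apoe, the lipid carrier, at 6.77 and 6.81. Gpnmb, a glycoprotein of phagocytes, stood at 6.50 and 6.75. None of these 6 genes was called between the populations, and each was above its p75 and CD90 means in both. All 26 macrophage markers on the list were tested: 5 fell, 2 rose and 19 were not called, with a median difference of −0.39 against 0.35 over all genes. Of all genes tested, 15% were called higher and 10.9% lower. Of the 24 markers well above background on all 8 arrays, 4 fell and 1 rose. Over all genes on all 8 arrays, 19.9% were called lower and 8.22% higher, so in the main fit the falls did not exceed the share of genes measured alike. The count of falls among the 26 moved with the processing. It was 2 under quantile normalization, where 3900 of 20571 genes fell. When only the 8 arrays were fitted it was 11, while 1633 of 20571 genes fell, so there the macrophage falls exceeded the share over all genes.

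Cd163 stood apart from the other macrophage markers. Its levels were 4.94, 5.14, 4.97 and 4.45 on the TRKA arrays and −7.59, −7.87, −8.01 and −8.28 on the TRKA-TGF arrays, where no array was well above background. The fall was at least 3486-fold (limma adjusted p = 1.34e-05). The next largest bound in this direction, for Arg1, was 305-fold. The p75 and CD90 populations had low and scattered levels, −5.70 ± 2.94 in p75 and −7.12 ± 2.59 in CD90. C1q chains, complement proteins made by macrophages, also fell: C1qb from 5.90 ± 0.18 to 2.20 ± 0.43 (difference −3.70, SE 0.55), and C1qc by 1.48, a call that was lost under quantile normalization (adjusted p = 0.0787). Vsig4, the complement receptor of resident macrophages, moved the other way, from −7.24 ± 1.35 with 1 TRKA array well above background to −1.62 ± 0.55 on all TRKA-TGF arrays (difference 5.62, SE 1.37, limma adjusted p = 0.00834).

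The 60-base probes of Cd163, seen on every TRKA array and no TRKA-TGF array, and of Slit2, an axon guidance gene seen the other way round, are printed as examples of a lost and a gained signal. The Cd163 probe lies at chr4:160423704-160423763 on the plus strand of rn4 and the Slit2 probe at chr14:67548352-67548411 on the minus strand. The genes are Entrez Gene 312701 and 360272. Both sequences are as the array files give them, with no part in capitals.
Cd163 probe: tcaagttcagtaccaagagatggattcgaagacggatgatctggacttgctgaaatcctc
Slit2 probe: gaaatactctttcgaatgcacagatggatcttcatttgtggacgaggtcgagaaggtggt

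Over all genes, 5318 of 20571 were called, or 25.9%, with 3078 higher and 2240 lower in TRKA-TGF. The total depended on the estimate of spread. It was 3598 when only the 8 arrays were fitted and 3870 with array weights per group. Those fits lost 40 and 36 of the 191 named calls. In the main fit the 2 directions were of different kinds. Of the genes called lower, 91.2% were well above background on all 8 arrays, and 53 were on no TRKA-TGF array. Of those called higher, 27.5% were on all 8 arrays, and 776 were on no TRKA array. Counted without a test, 658 genes were well above background on all TRKA-TGF arrays and no TRKA array, against 29 the other way. Among the 10277 genes on all 8 arrays, 845 (8.22%) were called higher and 2043 (19.9%) lower. The split depended on the scaling: 57.9% of calls were higher here, 49.0% with normexp background correction and 39.8% with quantile normalization, as the median over all genes moved from 0.35 to −0.01 and −0.14.

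**Figure D2:**
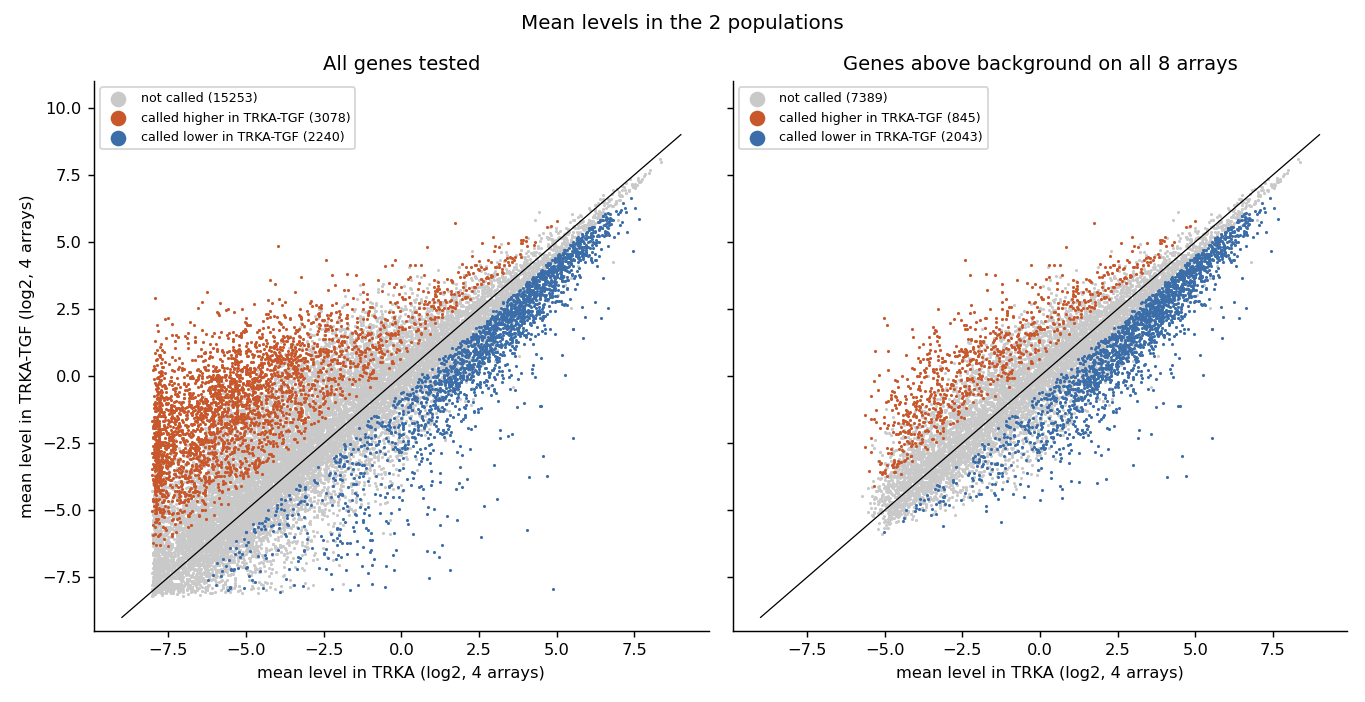
Mean level of each gene in TRKA (x axis) and in TRKA-TGF (y axis), both log2 relative to the array's 75th percentile, with called genes coloured by direction, for all 20571 genes on the left and for the 10277 genes on all 8 arrays on the right. Of the genes called higher, 776 were well above background on no TRKA array and lie towards the left edge of the left panel, and Cd163, at 4.87 and −7.94, lies at its lower right.

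The largest bounds among genes on no TRKA array are given with what each gene does. Rasa1, the Ras GTPase-activating protein p120, stood between −8.19 and −7.61 on the TRKA arrays and between 2.68 and 3.14 on the TRKA-TGF arrays, at least 836-fold higher (limma adjusted p = 6.02e-11). Its p75 and CD90 means were 0.55 and 1.43, so TRKA was the lowest of the populations. Cxcl13, the chemokine that attracts B cells, was at least 492-fold higher, and its p75 and CD90 means of −3.77 and −3.19 were low. Homer3, a scaffold of glutamate receptors, was at least 423-fold higher and Azin1, which protects the enzyme of polyamine synthesis, at least 359-fold. Snx10, a sorting nexin needed by osteoclasts, was at least 281-fold higher, with low means in p75 (−5.92) and CD90 (−1.58). Pxdc1, Spats2l, Chad, C1h9orf85 and Stra6l completed the 10 largest, at 287 to 412 times at least. The 15 largest rises among genes measured on all 8 arrays spanned 5.04 to 7.17 log2 units.

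Among those 15, Slc11a1, the phagosomal metal transporter NRAMP1, stood at −2.75, 2.23, −3.08 and −6.08 in TRKA and at 4.12, 4.40, 4.53 and 4.25 in TRKA-TGF. The TRKA arrays scattered widely while the TRKA-TGF arrays lay close together, and the difference was 6.75 (SE 1.39, limma adjusted p = 0.0029). Rasgrp3, an activator of Ras, rose by 6.03, and Lamtor3, a lysosomal scaffold of MAP kinase and mTORC1 signalling, by 5.23. Cd48 and Cd72, surface proteins of leukocytes, rose by 5.57 and 5.81. Cd72 was low in both other populations, at −5.39 in p75 and −4.23 in CD90. Aplf, a DNA repair factor, had the largest rise on all 8 arrays (7.17, SE 0.33, limma adjusted p = 5.67e-09) and Ing1, a chromatin reader, followed with 6.82. The others were Sema3c, Sun2, Sema3b, Zfp110, Vsig10l, Trim37, Atp6v0e2 and Fabp3. A second probe of Atp6v0e2 differed by 0.44 only and was not called.

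Of the largest falls on all 8 arrays, Ccl12, a chemokine for monocytes, stood at 4.56, 4.89, 4.82 and 4.55 in TRKA and between −5.56 and −2.35 in TRKA-TGF. The TRKA arrays were close together and every TRKA-TGF array lay far below them, a difference of −8.41 (SE 0.84, limma adjusted p = 9.95e-06). Slpi, the secreted inhibitor of leukocyte proteases, went from 4.10 ± 0.36 to −3.78 ± 0.10 (limma adjusted p = 5.67e-09). Hp, haptoglobin, which binds free haemoglobin for uptake by Cd163, stood at 5.46, 5.76, 5.57 and 5.31 against −2.83, −0.34, −4.43 and −1.58, a difference of −7.82 (SE 0.63). Vcan, the matrix proteoglycan versican, fell by 5.21 on the log2 scale, Sdc1, syndecan-1, by 5.20, and Pygl, which breaks down glycogen, by 5.83. Apol3l1, Asgr2 and Ccn3 fell by 7.56, 5.61 and 5.20. Upp1, uridine phosphorylase, fell by 5.56, a call lost with array weights per group (adjusted p = 0.0705). Rhoh, at −5.72, was called but lost the call without any 1 of 6 arrays (TRKA replicates 2, 3 and 4, TRKA-TGF replicates 1, 2 and 4, adjusted p up to 0.112).

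Cd163 was joined among the genes not above background in TRKA-TGF by 2 others with large bounds. Arg1, arginase 1, a marker of alternatively activated macrophages, stood at 1.84, 0.99, 1.74 and 1.75 in TRKA and between −8.19 and −6.10 in TRKA-TGF, at least 305-fold lower (limma adjusted p = 3.5e-05). Il1a, interleukin 1 alpha, was at least 221-fold lower. Trh, the thyrotropin-releasing hormone gene, Parpbp and Knstrn, a gene of the mitotic spindle, were at least 96.5, 81.7 and 44.8 times lower. Of the 12 alternative activation genes tested, 5 fell and 1 rose, with a median of −0.85, against 10.9% lower and 15% higher over all genes. Clec10a, a galactose lectin of these cells, fell by 4.42, though the call was lost with array weights per group (adjusted p = 0.0787).

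Many chemokine genes fell. Of 16 CC chemokines tested, 7 fell and 2 rose, with a median of −1.43, against 10.9% lower and 15% higher over all genes. Ccl2, the main monocyte attractant, went from 0.06 ± 0.61 to −4.27 ± 0.98, and its close relative Ccl7 from 3.65 ± 0.55 to −0.51 ± 0.54. Ccl6 and Ccl9 fell by 3.78 and 4.87. The 2 rises, Ccl4 and Ccl22, were lost when the 8 arrays were fitted alone (adjusted p = 0.111 and 0.0858). Ccl4 was also lost without any array but TRKA replicates 1 and 4 (adjusted p up to 0.0783), and Ccl22 without any but TRKA replicate 4 (adjusted p up to 0.0909). Of 13 CXC chemokines tested, 6 fell and 1, Cxcl13, rose, though over the other settings the falls ran from 3 to 6. Cxcl1, a neutrophil attractant, stood at 3.14, 3.41, 3.21 and 2.52 in TRKA and at −2.74, −6.54, −3.08 and −5.92 in TRKA-TGF, a difference of −7.64 (SE 0.77, limma adjusted p = 1.11e-05). Its neighbour in function Cxcl2 fell by 7.51. Interleukins of the same response fell as well: Il1b from 0.70 ± 1.03 to −4.55 ± 0.32, and Il18 from 4.79 ± 0.20 to 2.41 ± 0.29. Over the inflammatory cytokine list, 4 of 17 genes tested fell and 2 rose. Of its 9 genes well above background on all 8 arrays, 2 fell and 1 rose. These falls lay near the 19.9% called lower over all genes measured alike.

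**Figure D3:**
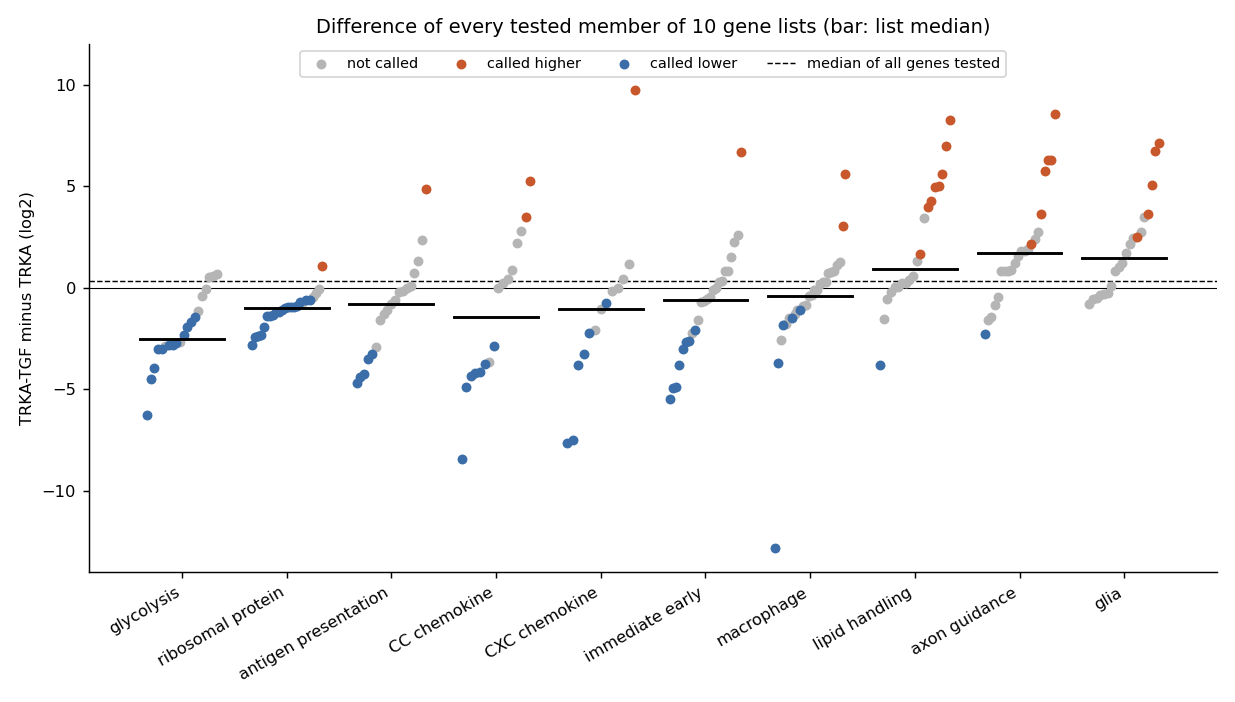
Difference of each tested member of 10 gene lists (y axis, TRKA-TGF minus TRKA, log2), with called members coloured, a bar at each list's median and a dashed line at 0.35, the median of all genes. The glycolysis median lies at −2.52 with 12 members called lower, and 8 of 20 lipid handling members are called higher, Lpl uppermost at 8.26.

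Several genes that present antigen on class II molecules fell in TRKA-TGF. Class II proteins display peptides to helper T cells, Cd74 is their chaperone, and Ciita is the activator that switches their promoters on. RT1-Da stood at 4.97, 5.33, 5.28 and 5.09 in TRKA and at 1.35, 1.04, 0.59 and 0.18 in TRKA-TGF (difference −4.38, SE 0.31, limma adjusted p = 4.9e-07). RT1-Db1 stood at 6.32, 6.57, 6.47 and 6.33 against 1.92, 2.57, 2.39 and 1.81 (difference −4.25, SE 0.58). Cd74 stood at 6.25, 6.53, 6.12 and 6.08 against 2.61, 2.92, 2.96 and 2.51 (difference −3.50, SE 0.42, limma adjusted p = 4.58e-05). In all 3 genes the populations did not overlap, and TRKA-TGF stayed above the p75 and CD90 means. RT1-Bb fell by 3.26, and RT1-DMa, which loads peptides, had means of 5.47 and 2.54 without passing the test (limma adjusted p = 0.0572). Ciita differed by −4.68 (SE 1.39, limma adjusted p = 0.0236), a call lost without TRKA replicate 2 or TRKA-TGF replicate 1 (adjusted p up to 0.0715). Itgax, the integrin CD11c of dendritic cells, rose by 4.86. Over the antigen presentation list of 19 genes, 5 fell and 1 rose, against 10.9% lower and 15% higher over all genes. Quantile normalization gave 8 falls. The summed signal of the list was 8.50 to 8.76 on a log2 scale in TRKA and 6.32 to 6.56 in TRKA-TGF.

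The promoters of 4 class II genes are printed because they share the Y box, the CCAAT motif of the class II promoter; RT1-Da, RT1-Db1 and RT1-Bb fell, and RT1-DMa was not called. Each window covers 120 bases ending at the base before the RefSeq start in GRCr8, 5′ to 3′ on the gene's strand, with GATTGG or its reverse complement in capitals. The windows are chr20:4515295-4515414 (plus) for RT1-Da, chr20:4560163-4560282 (minus) for RT1-Db1, chr20:4604119-4604238 (minus) for RT1-Bb and chr20:4712336-4712455 (minus) for RT1-DMa.
RT1-Da: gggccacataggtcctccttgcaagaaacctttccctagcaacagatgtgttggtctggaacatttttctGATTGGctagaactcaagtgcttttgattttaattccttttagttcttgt
RT1-Db1: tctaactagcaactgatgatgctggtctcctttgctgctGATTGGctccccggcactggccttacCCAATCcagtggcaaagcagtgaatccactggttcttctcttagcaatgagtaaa
RT1-Bb: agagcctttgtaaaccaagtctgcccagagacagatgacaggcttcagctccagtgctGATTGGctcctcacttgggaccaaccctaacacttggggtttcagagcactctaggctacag
RT1-DMa: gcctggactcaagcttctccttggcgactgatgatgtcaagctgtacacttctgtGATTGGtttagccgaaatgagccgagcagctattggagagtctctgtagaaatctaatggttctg
The motif began 50 bases before the start in RT1-Da, 62 in RT1-Bb and 65 in RT1-DMa, and RT1-Db1 held it at 81 and, on the other strand, at 55. Of 7 class II genes searched (RT1-DMb was not matched), 5 of the 6 promoters of 300 bases held GATTGG on either strand, or 83.3%, against 14.8% of 33469 rat promoters. A match is a description of these letters and says nothing on binding.

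Many genes on the list of glycolysis and the response to low oxygen fell in TRKA-TGF. Of 20 genes tested, 12 fell, with Adm and Bnip3 among them, and 8 were not called (over 20 other settings 11 to 13 fell and at most 1 rose), with a median of −2.52. Pgk1, phosphoglycerate kinase, stood at 3.46, 3.51, 3.70 and 3.27 in TRKA and at 0.04, −0.35, −1.10 and −0.50 in TRKA-TGF, a difference of −3.96 (SE 0.31, limma adjusted p = 1.08e-06). Tpi1, triosephosphate isomerase, fell by 3.02, Pfkl, the liver phosphofructokinase subunit, by 3.03, Ldha, lactate dehydrogenase A, by 2.74, and Gapdh by 1.43. Of the list's genes known to respond to low oxygen, Adm, adrenomedullin, fell by 6.29 and Bnip3, a mitochondrial autophagy receptor, by 4.50. Aldoc, aldolase C, fell by 5.95, although its second probe differed by −1.08 and was not called. Aldoa, the muscle aldolase, held 5.38 ± 0.37 and 5.32 ± 0.24 (limma adjusted p = 0.886). Pkm, pyruvate kinase, had probes that disagreed, at −0.39 and 5.23, so no direction is given for it. The letters ACGTG or GCGTG, the core of hypoxia response elements, were in 11 of the 18 promoters of the list matched (61.1%) against 41.6% of all promoters.

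Immediate early genes are the first transcripts after growth factor or stress signals. Of 24 tested, 8 fell, 1 rose and 15 were not called, with a median of −0.60, against 10.9% lower and 15% higher over all genes. Egr1 stood at 3.67, 4.15, 4.13 and 3.83 in TRKA and at −1.08, −0.87, −1.05 and −0.95 in TRKA-TGF, a difference of −4.93 (SE 0.20, limma adjusted p = 1.76e-09). The populations were each tight and far apart. Fos fell by 2.67, Myc by 2.64, Ier2 by 5.48, Ier3 by 3.78 and Btg2, a brake on cell division, by 4.90. Jun was not called, with means of 4.10 and 4.11 (limma adjusted p = 0.982). Klf4, a zinc finger factor of macrophage and epithelial identity, rose from −5.15 ± 2.96 to 1.54 ± 0.61 (difference 6.69, SE 1.04).

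The feedback inhibitors of Ras and MAP kinase went the other way in 6 of 17 genes, and 1 fell (median 1.29). Of all genes, 15% were called higher and 10.9% lower. Over the other settings 4 to 7 of the 17 rose. Of the 8 genes well above background on all 8 arrays, 2 rose and 1 fell, and 5 of the 17 were on no TRKA array. Beside Rasa1, Spred3 rose by 3.78 (SE 0.60, limma adjusted p = 0.000477) and Spry1 and Spry2, which hold back receptor kinases, by 3.40 and 1.29. The Spry1 call was lost with normexp correction (adjusted p = 0.15) and the Spry2 call on the 8 arrays alone (adjusted p = 0.102). Dusp6, the phosphatase that inactivates ERK, fell from 1.77 ± 0.83 to −0.23 ± 0.15. In the EGF family list, 4 of 15 genes rose and 1 fell, and when only the 8 arrays were fitted 1 rose. Lrig1, which targets EGF receptors for degradation, rose by 2.79 (SE 0.55). Adam17, the protease that releases TGF-alpha from its precursor, rose by 2.21, a call lost without TRKA-TGF replicate 4 (adjusted p = 0.0529) and on the 8 arrays alone. Nrg1, a ligand of the related ErbB receptors, fell by 4.88.

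Of the 36 lists, lipid handling had the most rises. Of its 20 genes tested, 8 rose and 1 fell, with a median of 0.94, against 15% higher and 10.9% lower over all genes. Over the 20 other settings, which leave out the refit on all 8 arrays, 6 to 9 rose. Of its 10 genes well above background on all 8 arrays, 2 rose and 1 fell, with a median of 0.24. The other rises were of genes not measured on every array. Lpl, lipoprotein lipase, stood at −5.76, −7.80, −7.57 and −2.49 in TRKA and at 2.50, 2.40, 2.12 and 2.38 in TRKA-TGF (difference 8.26, SE 1.06, limma adjusted p = 8.92e-05). Only 1 of the TRKA arrays was well above background for it, and the populations did not overlap. Fabp4, the fatty acid carrier of fat cells and macrophages, went from 1.72 ± 0.73 to 5.71 ± 0.03, and Soat1, which stores cholesterol as esters, from −4.99 ± 3.94 to 1.98 ± 0.30. Pparg, the nuclear receptor that drives these genes in fat cells, was on no TRKA array and at least 32.5-fold higher in TRKA-TGF (limma adjusted p = 0.000351). Cd5l, a secreted macrophage protein of lipid metabolism, rose by 5.03. Ch25h, which makes an oxysterol, fell by 3.79, a call lost with array weights per group (adjusted p = 0.0563). In sterol synthesis Srebf1, a transcription factor of lipid synthesis, rose by 5.63, while Hmgcs1, the synthase at the start of the pathway, fell by 2.44. That list held 3 rises and 3 falls in 22 genes.

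Slit2, a repellent of growing axons, stood at −7.90, −7.92, −7.63 and −7.71 in TRKA, on no array above background, and at 0.86, 0.50, 1.48 and 0.30 in TRKA-TGF. It was at least 194-fold higher (limma adjusted p = 3.35e-08), close to the p75 and CD90 means of 0.28 and 0.38. Its second probe also rose, by 3.56. Sema3c and Sema3b, secreted semaphorins, rose by 6.27 and 5.76, and Nrp1, the semaphorin and VEGF receptor, by 6.27. Over the axon guidance list, 6 of 22 genes rose, 1 fell and 15 were not called (median 1.69), against 15% higher over all genes. Of the 22, 3 were well above background on all 8 arrays, of which 2 rose, and 6 were on no TRKA array. Cdh2, N-cadherin, was the fall, at −2.29, and its call was lost without TRKA replicate 4 (adjusted p = 0.0527).

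Of 20 glial genes tested, 5 rose, Ngfr among them, and 15 were not called (quantile normalization gave 3 falls), with a median of 1.48. Over all genes, 15% were called higher. Of the 20, 8 were well above background on no TRKA array. Only 1 was on all 8 arrays, with a difference of −0.37 that was not called. S100b was at least 56.3-fold higher at levels between −1.77 and −0.37, against 3.68 in p75, but its second probe differed by 0.69 and was not called. Lgi4, a secreted glial ligand, was at least 20.1-fold higher at −2.48 against 4.49 in p75. Scn7a and Npy, at 4.93 and 0.89 in p75, were well above background on no array of TRKA or TRKA-TGF. Sox10, the defining transcription factor of these glia, had means of −5.30 and −3.58 and was not called, against 4.08 in p75. The summed glial signal ran from −0.55 to 1.25 in TRKA and from 1.65 to 2.25 in TRKA-TGF on a log2 scale. This sum includes Ngfr itself, so it is no separate measure of glial cells. Their part in the rise of Ngfr was not tested.

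Of 23 fibroblast genes tested, 3 fell, near the background share of 10.9%, and 2 rose. Only 7 were well above background on all 8 arrays, and the 3 falls were among these 7, with a median of −2.35 over the 7. Of all genes on all 8 arrays, 19.9% were called lower. The summed signal of the 23 genes, to which the bright Col1a1 adds, ran from 6.82 to 7.44 in TRKA and from 3.55 to 4.38 in TRKA-TGF on a log2 scale. The mean level over the 23 genes overlapped, at −4.86 to −2.59 and −4.32 to −2.87. Col1a1, the main chain of collagen I, stood at 6.43, 6.69, 6.74 and 6.73 in TRKA, near the p75 mean of 7.10, and at 2.90, 2.54, 1.58 and 3.15 in TRKA-TGF (difference −4.10, SE 0.29). Col1a2 and Fn1, fibronectin, fell by 4.91 and 3.49. The rises were Loxl1, a collagen cross-linking enzyme, at least 10.53-fold higher, and Postn, periostin, with a difference of 5.33 and a call lost on the 8 arrays alone (adjusted p = 0.0977). Dcn and Lum, fibroblast proteoglycans, were well above background on no TRKA array and 2 TRKA-TGF arrays. The part of such cells in the falls of secreted and matrix genes was not tested. In the marker lists of other cells, 1 of 8 neutrophil genes, 2 of 10 lymphocyte genes and 1 of 8 endothelial genes rose. A single epithelial gene of 12 tested fell, and the 4 mast cell genes tested were not called.

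Growth factors and proteases changed gene by gene. Hgf, hepatocyte growth factor, was on no TRKA array and at least 47.6-fold higher in TRKA-TGF (limma adjusted p = 3.45e-05), and Csf1, the macrophage growth factor, went from −5.23 ± 2.41 to 0.53 ± 0.40. Plat, tissue plasminogen activator, was at least 60.7-fold higher. Adamts4, an aggrecan protease, rose by 5.83 and Mmp14 fell by 1.39 with Timp1, the metalloprotease inhibitor, by 2.19. Among interferon-induced genes Ifit2 was at least 58.5-fold higher and Ifit3 rose by 4.22, while Ifi44 fell by 2.13. The interferon list had 4 rises and 2 falls in 15 genes (median 2.35), against 15% higher and 10.9% lower over all genes. Irf1 was called higher by 4.23, but its second probe was called lower at −3.98, so no direction is given for it. Over the other settings the list had 2 to 6 rises. Of its 6 genes well above background on all 8 arrays, 1 rose and 2 fell, with a median of −1.05. Hmox1, haem oxygenase 1, which breaks down the haem that Cd163 brings in, fell from 7.28 ± 0.14 to 5.37 ± 0.04 (difference −1.92, SE 0.20). Cp, the ferroxidase ceruloplasmin, fell by 3.74, although 1 of its other probes did not follow, at 0.32. Of 17 complement genes, 4 fell and 1 rose, and 7 fell on the 8 arrays alone. C1r, the first protease of the cascade, fell by 4.48.

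Among genes measured on all 8 arrays with a mean level of 4 or more, 50.9% of 939 were called lower, with a median of −0.61. Over all genes tested, 10.9% were called lower and 15% higher. Of 24 ribosomal protein genes, 19 fell and 1, Rps4x, rose by 1.07, with a median of −0.97, and under quantile normalization 9 fell and 2 rose. Rpl13 had the largest fall named, at −2.83 (SE 0.30), followed by Rps9 with −2.41. Of 28 lysosome genes, 6 fell and 2 rose, and quantile normalization turned this to 1 fall and 8 rises. Gla, alpha-galactosidase, was on no TRKA array and at least 94.1-fold higher, and Ctsc, cathepsin C, fell by 1.67. Of 23 proteasome genes, 6 fell and 1 rose (4 each under quantile normalization), with Psmb9, a subunit of the immunoproteasome, at −2.37. Among 27 cell cycle genes, 5 fell and 2 rose. Mki67, the proliferation antigen Ki-67, went from 3.48 ± 0.43 to −0.03 ± 0.65 (difference −3.51, SE 0.34), Ccnd2, cyclin D2, fell by 3.82 and Birc5, survivin, by 3.68.

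**Figure D4:**
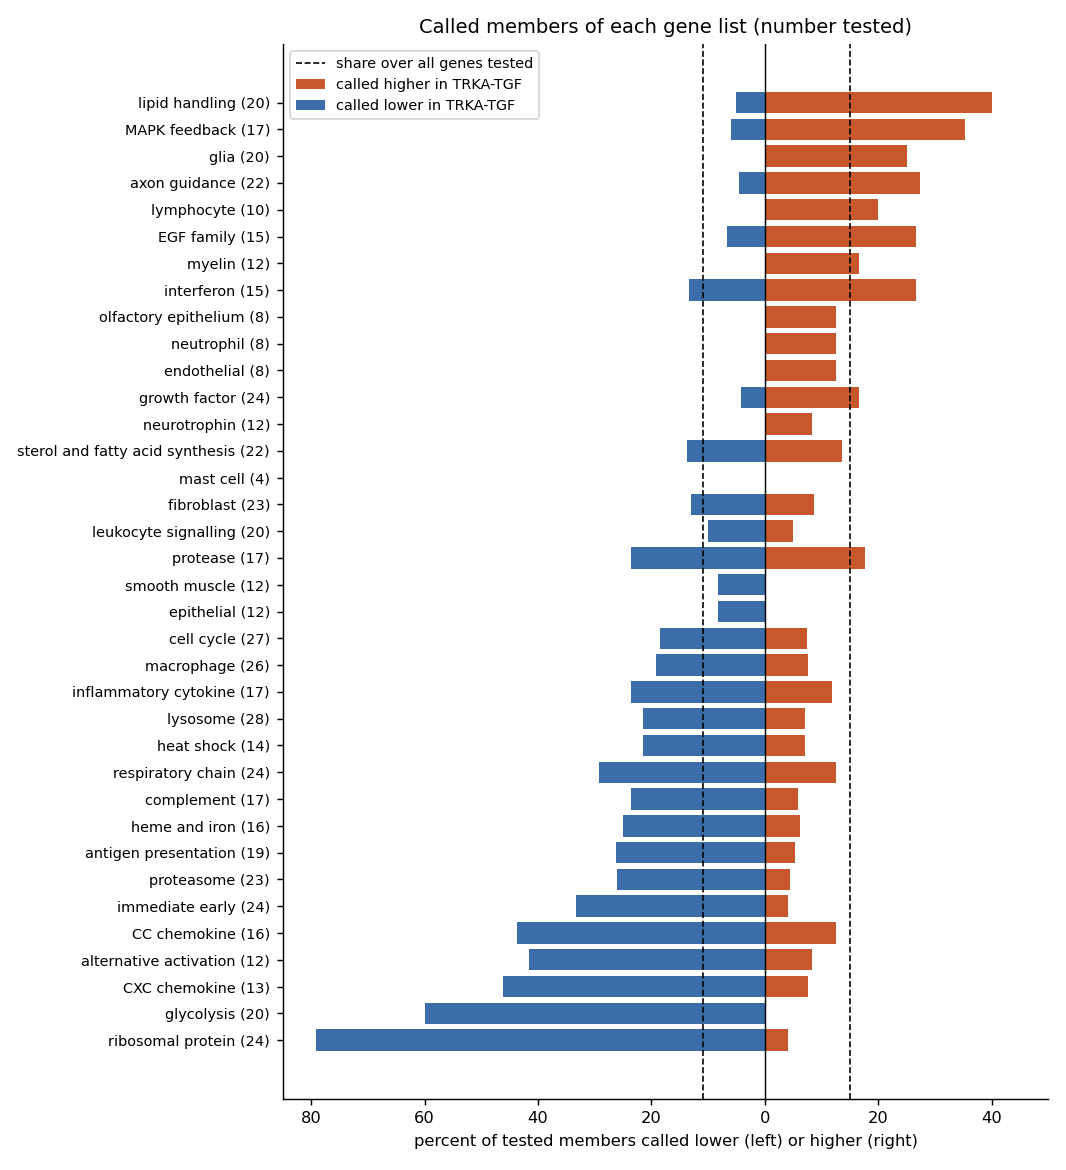
Share of the tested members of each gene list called higher or lower in TRKA-TGF (x axis, percent, lower to the left and higher to the right), with dashed lines at the shares over all genes, 15% and 10.9%. Ribosomal protein (19 of 24 lower) and glycolysis (12 of 20 lower) reach farthest left, and lipid handling (8 of 20 higher) and MAPK feedback (6 of 17 higher) farthest right.

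For Cd163 and Ccl2, populations on the same slide were also compared. These comparisons involve other cell populations, so they do not show the difference between TRKA-TGF and TRKA without the change of slide. On the slide of the TRKA arrays, TRKA exceeded p75 in Cd163 by 10.57 (limma adjusted p = 3.23e-05, with 2 p75 arrays well above background) and in Ccl2 by 3.84 (limma adjusted p = 0.00038). On the other slide TRKA-TGF was 0.18 above CD90 in Ccl2, which was not called (limma adjusted p = 0.913). CD90 against p75, the comparison that spans both slides and shares no array with this one, called 7.19% of genes, and 219 genes were called the same way in both against 204 the opposite way. Those 219 were 4.12% of the genes called here and 14.8% of the 1479 called between CD90 and p75.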

How the data were processed

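Single-colour Agilent rat arrays of 16 samples, 4 per population, were used, and TRKA-TGF was compared with TRKA. Per the file headers, spot intensities came from Agilent Feature Extraction 10.7.3.1 (10.5 in the submitters' processing notes), which subtracted background to give the processed signal. The authors' deposited log2 table matched quantile-normalized log2 signals centred on each probe's median, and served as an alternative. From the intensities, log2 of the processed signal minus each array's 75th percentile was computed, without control and outlier spots. Spots of a probe were averaged, a probe had to be well above background on 4 or more of the 16 arrays, and a gene took its probe of highest mean. Of 30367 probes, 18355 took a current RefSeq name by accession and 3180 by symbol or synonym, and 8832 kept the file's name. limma 3.58.1 in R 4.3.3 fitted 1 mean per population over 16 arrays, with Benjamini-Hochberg adjustment, after a check on simulated data. The number of arrays limits the precision.

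Named genes were those of the sorts and factor, the 15 largest rises and falls called on all 8 arrays without overlap, the 10 largest bounds per direction, and up to 4 called members per direction and 3 others of each of 36 lists. Beyond this rule, RT1-Bb, Csf1r, Itgam, Trem2, Scn7a, Npy, Fabp4, Spry1, Spry2, Ccl6, Ccl7, Fos, Myc, Ldha, Tpi1 and Gapdh were named after their values were seen, as were the glial and fibroblast genes Sox10, Dcn and Lum. The comparison and lists were chosen with earlier results of these data known. Promoter sequences are from RefSeq, GRCr8; coordinates of probes are rn4, as the array files give them. Some genes that the rule names are not reported here.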

Additional observations from a re-analysis of the deposited data

Results flagged for a closer look

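Over 430 sets of 4 arrays, the level of 22 single arrays lay far from the other 3 of its population by Dixon's test, 11 in TRKA and 11 in TRKA-TGF; chance alone marks about 1 in 20. In TRKA, replicate 2 was low for Adam17 (−2.83, others 0.38 to 0.88) and Arg1 (0.99) and high for Tgfa (1.95, others −0.84 to −0.55). TRKA replicate 3 was high for Dusp7 (1.00, others −8.11 to −7.42), Postn (0.18, others −8.15 to −7.87), Zfp110 (−0.13, others −5.54 to −5.33), Ifit2 (−6.02), Ier2 (3.71) and Psma6 (4.30). TRKA replicate 4 held the single high value of Egfr (1.29, others −7.89 to −7.48), and replicate 1 was low for Gapdh (5.64). In TRKA-TGF, replicate 1 was high for Aldoc (−3.10), and replicate 2 was low for Pdgfb (−4.08, others −0.37 to 0.10) and Gapdh (3.99). TRKA-TGF replicate 3 was high for Cox7a2 (4.57), Gnal (−2.32), Hmgcs1 (0.38) and Spmip7 (−5.84, others −7.75 to −7.53) and low for Clec10a (1.14). TRKA-TGF replicate 4 was high for Apol3l1 (−0.70, others −4.09 to −3.52) and Ccnb1 (−4.25, others −7.71 to −7.53) and low for Rplp0 (3.01).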

How the results depend on the processing

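Genes called lower numbered 3900 with quantile normalization and 3888 with the authors' deposited values, and genes called higher 1965 on the 8 arrays alone and 1022 when only probes on all 8 arrays were refitted (3354 calls in all). Among genes on all 8 arrays, 477 were called higher when the 8 arrays were fitted alone, and list members called higher numbered 47 there and 25 in the refit. Requiring 3 of 4 arrays gave 1008 genes detected in TRKA-TGF only and 104 in TRKA only, and 132 of the calls shared with CD90 versus p75 were of genes on all 16 arrays. Leaving out 1 array gave 4252 to 5680 calls (2383 to 3230 higher, 1869 to 2450 lower); on all 8 arrays 2341 to 3044 (602 to 1008 higher, 1726 to 2164 lower). The same fits gave 166 to 199 list members (55 to 75 higher, 108 to 126 lower), 706 to 1001 genes in TRKA-TGF only and 38 to 56 in TRKA only. The difference in spots well above background ran from 12.9 to 14.9 points and in median signal from 116 to 129. With the replicate number as a block, 2945 genes were called higher and 2089 lower, and 9 of 191 named calls were lost. Deviations of equal numbers correlated at 0.01 to 0.04, and each TRKA-TGF array correlated best with its own number. Correlations this small do not decide whether the numbers pair the arrays, and they were not used as pairs in the main fit. Of the 191 named calls, 127 kept direction and threshold in every setting tried. The list ranges over 20 settings leave out the refit of probes on all 8 arrays. Rises ranged from 0 to 2 in the inflammatory cytokine, alternative activation and cell cycle lists, 1 to 4 in fibroblast genes and 2 to 5 in sterol genes. Falls ranged from 4 to 7 in cell cycle genes and 3 to 5 in fibroblast genes. Differences changed sign for Fpr1 (−0.55 quantile, −0.54 deposited values), Gnal (−0.79 in both), and, over the mean of a gene's probes, Cycs (−0.39), Hspa8 (0.53), Mitf (0.30) and Pkm (2.42). The cause of these shifts was not tested, apart from the smaller number of genes or arrays in the refits. A block for slide was not run, since each population lies on 1 slide, and low signals in TRKA bound the size of the rises.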
